A study of Rattus norvegicus with 8 samples.

Results

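The collagen gene family was followed on 8 Agilent Whole Rat Genome arrays of RNA from BRL-3A cells, an established rat liver line. In 4 samples the cells had received siRNA lnc19959.2, directed at a long noncoding RNA of that name, and the other 4 carry the transfection label NC, which the labels do not spell out. All were transfected with lipofectamine and harvested at 48 h, and no other treatment or genotype is labelled. The study's stated interest is triglyceride metabolism in rat liver. All groups share a single cell line, and the level of lnc19959.2, for which the array design gives no named probe, is not analysed here. Members were the non-control probes whose gene name in the scanner files begins with Col and a digit, which gave 57 of 41012 probes and 37 of 17542 gene names. Among them, the 2 probes of Col4a3bp were set aside, because that name is an older one for a ceramide transfer protein that is no collagen (log2 differences of 0.15, not called, and -0.54, adjusted p = 0.00828 by limma). The remaining 55 probes of 36 genes comprised 20 probes of 11 fibrillar, 10 probes of 7 basement membrane and 25 probes of 18 other collagens. A probe of Col26a1, named otherwise in the files and so outside the rule, was well above background on no array.

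Collagens are secreted proteins made of 3 chains that wind into a helix wherever glycine takes 1 position in 3 along the chain. Fibrillar collagens such as types I, III and V assemble into fibrils after their end pieces (propeptides) are removed, type IV collagen forms the sheet-like network of basement membranes, and the remaining types decorate fibrils, anchor membranes or build other networks. In liver, activated stellate cells and fibroblasts are the usual source of fibrillar collagen, and excess deposition is the hallmark of fibrosis.

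Probe sequences showed which part of these chains the arrays read. The Col3a1 probe, the brightest Col5a2 probe and the dimmest Col1a1 probe all lie in the stretch that encodes the end of the C-propeptide, the domain through which fibrillar chains choose their partners. They are printed because the results turn on these genes and because the sequences are alike. Positions follow the array design (rn4): the Col3a1 probe at chr9:44317465-44317524 (+ strand), the Col5a2 probe at chr9:44375560-44375619 (- strand) and the Col1a1 probe at chr10:83637903-83637962 (+ strand). Capitals mark the longest run shared with the Col3a1 probe, and in Col3a1 the run shared with Col5a2.
Col3a1: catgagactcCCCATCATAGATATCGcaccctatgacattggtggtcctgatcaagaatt
Col5a2: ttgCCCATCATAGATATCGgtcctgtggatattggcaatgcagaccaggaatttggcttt
Col1a1: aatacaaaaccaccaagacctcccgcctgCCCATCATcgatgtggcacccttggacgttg
Laid along the Col3a1 probe without gaps, the Col5a2 probe matched it at 37 of 53 overlapping bases (69.8%) with an unbroken run of 16 bases. The Col1a1 probe matched at 29 of 41 bases (70.7%), with a longest run of 8. Whether a transcript of 1 gene binds the other's probe was not tested.

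Another pair of probes read the helical part itself. A glycine codon (GGN, in capitals) returned at 1 codon in 3 for 5 codons in a Col4a5 probe at chrX:36958983-36959042 (- strand) and for 6 codons in a Col9a1 probe at chr9:22976816-22982770 (+ strand, spanning introns).
Col4a5: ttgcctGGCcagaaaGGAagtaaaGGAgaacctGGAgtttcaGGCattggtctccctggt
Col9a1: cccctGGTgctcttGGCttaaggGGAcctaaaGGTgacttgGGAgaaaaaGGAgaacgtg
Only these 2 of the 57 probes held such a run of at least 5 glycine codons, and neither was called different between the groups.

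Signals are given as log2 of the processed spot intensity minus the array's 75th percentile, so that 0 is the level of that percentile, and differences are siRNA minus NC on the log2 scale with the standard error (SE) of a limma fit. Each probe's scale is its own, so levels were not compared between genes. The 75th percentile of intensity was 245 to 261 on NC and 289 to 322 on siRNA arrays, and 57.3% to 64.1% and 55.4% to 59.1% of spots carried the Feature Extraction mark for signal well above background. Across probes, r was 0.987 to 0.993 between arrays of the same group and 0.946 to 0.962 between arrays of different groups. Each group had a slide and a scan of its own, so effects of slide, scan and transfection cannot be told apart for any difference below. The labels do not say whether arrays of a group came from separate cultures. The p-values therefore reflect the spread among arrays alone, which may be technical, and the number of arrays limits the precision.

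Several defining hepatocyte markers were not detected in these liver cells. Of 12 hepatocyte markers, 5 (Alb, Serpina1, Tat, Tf and Ttr) were well above background on no array, and 5 were measured, with 3 higher and 1 lower in siRNA cells. Their summed linear signal was 9 to 10.6 times the 75th percentile on NC and 19.9 to 22.8 times on siRNA arrays. Such sums mix probes of different scale, and this one was mostly Arg1 (0.87 higher) and, on siRNA arrays, Cyp2e1 (4.94 higher). Asgr1, the 1 hepatocyte marker that was lower, was above background on no siRNA array and at least 4.70-fold lower. Of 13 fibroblast and stellate cell markers on the array other than collagens, Hgf, Lrat, Lum and Pdgfra were never above background and 7 were measured. Dcn and Tagln were higher, Pdgfrb and Reln lower, and the summed signal ran from 112 to 138 on NC and 115 to 123 on siRNA arrays, mostly from Vim (-0.07, not called). The summed ranges, NC and then siRNA, were 2.39 to 3.02 and 4.39 to 5.94 for 8 endothelial markers (5 measured, 3 higher, 2 lower, Pecam1 never above background) and 2.14 to 2.42 and 4.27 to 4.87 for 5 cholangiocyte markers (3 measured, 1 higher, 2 lower, Epcam never). The endothelial rise was mostly that of Kdr (1.64). Vwf and Tek were above background on no siRNA array and at least 8.18-fold and 2.93-fold lower. The cholangiocyte rise was that of Krt7 (1.75), while Spp1 (-0.46) and Sox9 (-1.01) were lower. For 7 leukocyte markers the summed ranges were 6.52 to 7.40 and 5.32 to 6.38 (2 measured, 0 higher, 1 lower, Adgre1 never). Among all measured genes 35.3% were called higher and 29.3% lower, so calls in such short lists were not read as shifts of a cell type. The part of other cell types in the collagen differences was not tested, and in bulk RNA fewer cells of a type and less RNA per cell cannot be told apart.

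Fibrillar and basement membrane collagens that BRL-3A cells expressed were mostly higher in siRNA cells, and 5 of the 6 collagens that were lower were at or near background there. A gene was measured where a probe was well above background on at least 3 of the 4 arrays of a group, and it is represented by its brightest such probe. That left 34 probes of 21 collagen genes. Of the 21 genes, 12 were called higher and 6 lower at an adjusted p under 0.05 (limma, adjusted over 24853 probes) and 3 were not called, against 35.3% higher and 29.3% lower among 11476 measured genes. By class, 5 of 9 fibrillar genes were higher and 2 lower, 5 of 5 basement membrane genes were higher, and 2 of 7 other collagens were higher and 4 lower. The median difference was 0.51 for fibrillar, 0.59 for basement membrane and -1.01 for other collagens, against 0.04 over all measured genes. By fitted values, 3 collagen genes were at least 2-fold higher and 6 lower, where 4.07% and 8.96% of all genes were, but Col4a4 and Col22a1, below background in 1 group, are shown by their bounds to differ only by at least 1.13-fold and 1.63-fold. Of the 34 probes, 20 were higher and 7 lower, against 29.4% and 32.2% of all probes. These counts cover only members that passed the filter. A member that passed through 1 group alone was chosen for its signal there, which favours a difference. The counts therefore describe the 21 genes and not the family. In a fit with no filter on dim probes, 13 of 36 collagen genes were higher and 8 lower. By probe these were 21 and 9 of 55, beside 7015 and 10504 of all 41012 probes.

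Detection split the family further. For 14 genes, the representative had a probe well above background on all 8 arrays, of which 10 were higher, 1 lower and 3 not called, where 37.7% of all genes detected on 8 arrays were higher and 25.9% lower. Another 4 measured genes, Col2a1, Col22a1, Col6a5 and Col9a3, were detected on each NC array but on no siRNA array, a pattern shared by 4.34% of measured genes (at least 3 NC arrays, no siRNA array). Col4a4 alone was seen on siRNA arrays only. Of the 15 collagen genes that were not tested, 10 were above background on no array: the fibrillar Col11a1, the basement membrane chains Col4a3 and Col15a1, and Col6a1, Col6a4p1, Col6a6, Col8a2, Col10a1, Col20a1 and Col23a1. The other 5 were well above background on at most 1 array of a group: Col24a1, Col14a1 and Col7a1 on 1 NC array, and Col6a2 and Col9a2 on 1 array of each group. Groups did not overlap for 18 of the 21 measured genes, 12 with all siRNA arrays above and 6 with all below, where 62.1% of all genes did not overlap.

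**Figure D1:**
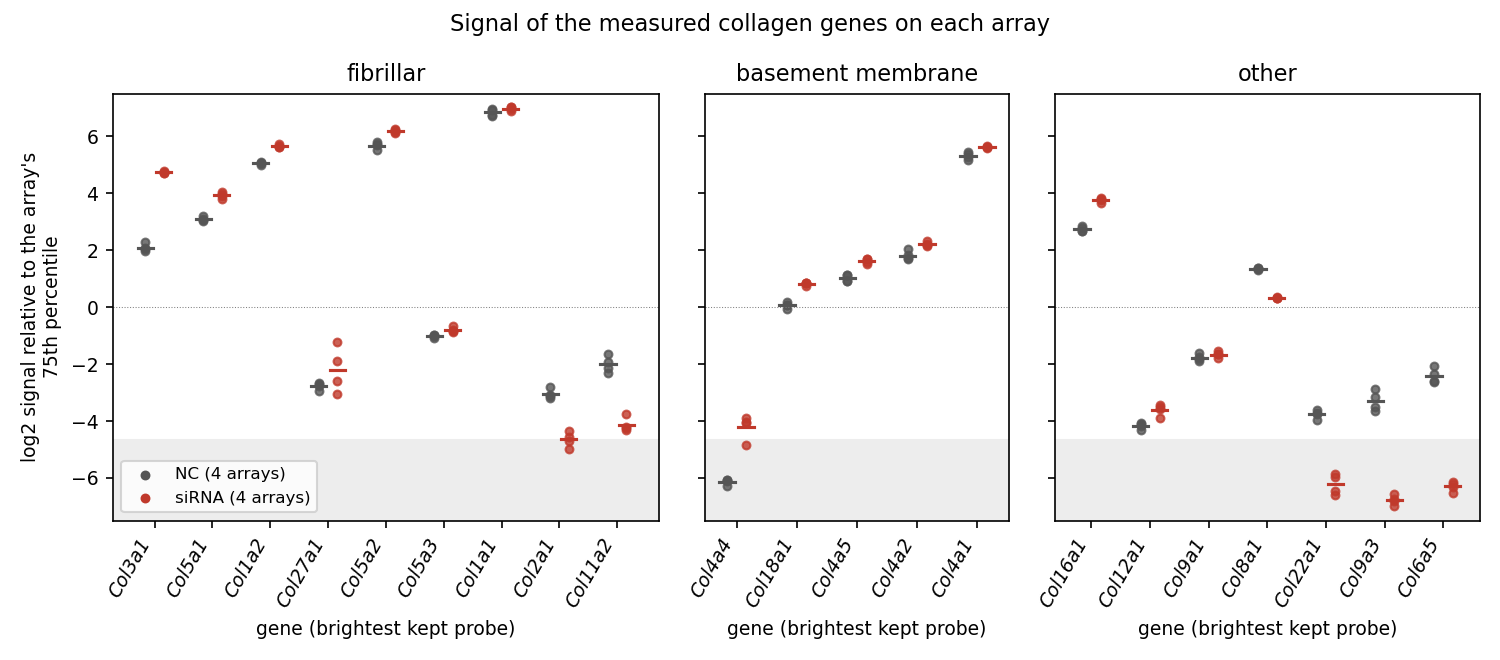
Log2 signal relative to the array's 75th percentile (vertical axis) for each of the 21 measured collagen genes (horizontal axis), with 4 NC arrays in grey, 4 siRNA arrays in red and bars at group means; the shaded band lies below the lowest signal that any array counted as well above background. Col3a1 stands out with NC arrays from 1.98 to 2.28 and siRNA arrays from 4.72 to 4.78, and Col22a1, Col9a3 and Col6a5 fall into the band on every siRNA array.

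Among the fibrillar collagens, Col3a1, the chain of type III collagen that accompanies type I in pliable tissue, had the largest rise. Col3a1 signal was 2.28, 2.06, 1.98 and 2.03 on NC arrays 1 to 4 and 4.72, 4.72, 4.75 and 4.78 on siRNA arrays 1 to 4. The groups lay far apart, and siRNA arrays spread less than NC arrays (2.09 ± 0.13 and 4.74 ± 0.03, mean ± SD, n = 4). Its difference was 2.66 ± 0.07 (SE, limma adjusted p = 2.58e-07), a 6.30-fold higher signal. Col3a1 had 1 probe, the one printed above.

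The chains of type V collagen, which sits inside type I fibrils and regulates their width, rose less. Col5a1 gave 3.1, 3.07, 3.01 and 3.20 on the NC arrays and 3.79, 3.89, 3.96 and 4.05 on the siRNA arrays. All siRNA arrays were above all NC arrays, and the difference was 0.83 ± 0.07 (limma adjusted p = 4.78e-05, n = 4 per group), with 0.91 ± 0.10 by its other probe. Col5a2 rose by 0.51 ± 0.07 (limma adjusted p = 0.000437), from an NC mean of 5.67 ± 0.11 to 6.18 ± 0.07 (SD), and its other 2 probes gave 0.54 and 0.46. Col5a3 rose by 0.21 ± 0.06 (limma adjusted p = 0.0157). With normexp background correction, the Col5a3 difference was -0.057 and not called (limma adjusted p = 0.814).

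Type I collagen, the main fibril of scar and bone, is built from Col1a1 and Col1a2 chains. Col1a2 gave 5.10, 4.99, 5.05 and 5.06 on NC arrays and 5.63, 5.66, 5.71 and 5.63 on siRNA arrays. The groups did not overlap (0.61 ± 0.05, limma adjusted p = 2.79e-05, 1.52-fold), and its other probe gave 0.55 ± 0.05. For Col1a1 the call depended on the probe. Its brightest probe read 6.72, 6.76, 6.95 and 6.92 on NC arrays and 7.01, 6.90, 7.01 and 6.94 on siRNA arrays. Those groups overlapped, and the difference of 0.13 ± 0.07 was not called (limma adjusted p = 0.126). The Col1a1 probe printed above read 5.00, 5.08, 4.97 and 4.95 on NC and 5.66, 5.59, 5.65 and 5.73 on siRNA arrays, with no overlap (0.66 ± 0.05, limma adjusted p = 3.39e-05). The remaining probe gave 0.45 ± 0.12 (limma adjusted p = 0.0126), with siRNA array 4 at 5.58 and the other siRNA arrays at 5.99 to 6.11. The array design places the brightest probe at base 4634 of the transcript, downstream of that remaining probe at base 4413, which ends in a stop codon. The raw processed intensity of the brightest probe was 27400 to 31400 on NC and 36500 to 39700 on siRNA arrays, no spot was marked as saturated, and the cause of the disagreement was not tested. With median scaling the brightest probe was also called, at 0.44, and with spike-in scaling at 0.68. With the mean of the 3 probes, the Col1a1 difference was 0.41 and called (limma adjusted p = 0.000342).

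The fibrillar chains Col2a1 and Col11a2 were lower in siRNA cells. Col2a1, the chain of cartilage type II collagen, read -3.09, -3.18, -2.81 and -3.13 on NC arrays and -4.98, -4.55, -4.68 and -4.36 on siRNA arrays. No siRNA array was well above background, so its fold is given as a bound: the NC mean was at least 2.58-fold above the lowest signal counted as present, per array, or the probe's own signal where that was higher (fitted difference -1.59 ± 0.14, limma adjusted p = 5.87e-05). Its other probe gave at least 1.47-fold. Col11a2, a type XI chain that nucleates cartilage fibrils, read -2.13, -1.91, -1.66 and -2.33 on NC arrays and -4.23, -4.30, -4.22 and -3.75 on siRNA arrays. Every siRNA array was below every NC array, and siRNA array 4, the highest of its group, was the only siRNA array above background (-2.12 ± 0.17, limma adjusted p = 3.73e-05). Col27a1, another fibrillar chain of cartilage, read -2.71, -2.94, -2.65 and -2.75 on NC arrays and -3.05, -2.59, -1.23 and -1.91 on siRNA arrays. Its siRNA arrays spread from below the NC range to above it, and the difference of 0.57 ± 0.36 was not called (limma adjusted p = 0.198). Without siRNA replicate 1, the Col27a1 difference was 0.85 and called (limma adjusted p = 0.0403), and without siRNA replicate 3 it was 0.25 and not called (limma adjusted p = 0.424).

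Basement membrane collagens were higher in siRNA cells in all 5 measured genes by their brightest probes. Of these, Col4a4 passed the filter through siRNA arrays alone, which favours a higher value there. Col18a1, whose chain carries heparan sulfate and releases endostatin, read 0.18, 0.06, -0.06 and 0.08 on NC arrays and 0.86, 0.84, 0.72 and 0.83 on siRNA arrays. The groups were clearly separate at 0.75 ± 0.06 (limma adjusted p = 4.45e-05, 1.68-fold), and its other probe gave 0.76 ± 0.08. Col4a5, a chain of specialised basement membranes such as that of the kidney glomerulus, read 1.11, 1.11, 0.93 and 0.93 on NC and 1.69, 1.69, 1.57 and 1.5 on siRNA arrays. All its siRNA arrays were above all NC arrays (0.59 ± 0.07, limma adjusted p = 0.000255). The dim glycine-repeat probe of Col4a5 printed above differed by 0.08 ± 0.20 and was not called (limma adjusted p = 0.739).

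The ubiquitous chains of type IV collagen, Col4a1 and Col4a2, moved by small amounts. Col4a2 read 1.82, 1.71, 1.69 and 2.03 on NC and 2.21, 2.17, 2.16 and 2.31 on siRNA arrays. NC array 4 came nearest to the siRNA arrays without reaching them (0.40 ± 0.08, limma adjusted p = 0.00376). Col4a1 read 5.45, 5.36, 5.16 and 5.27 on NC and 5.65, 5.59, 5.62 and 5.62 on siRNA arrays by its brightest probe. Groups did not overlap (0.31 ± 0.07, limma adjusted p = 0.00495), but the other Col4a1 probe gave -0.14 ± 0.06, which was not called (limma adjusted p = 0.0758). With the mean of both probes, the Col4a1 difference was 0.09 and not called (adjusted p = 0.154). Col4a4, a chain of the specialised type IV network, read -6.29, -6.09, -6.10 and -6.07 on NC arrays, all not well above background, and -4.83, -3.91, -4.07 and -4.04 on siRNA arrays, of which 3 were. Its siRNA mean was at least 1.13-fold above the detection bound of the NC arrays (fitted difference 1.92 ± 0.19, limma adjusted p = 0.000105). Col4a4 did not pass the filter without siRNA replicate 2, 3 or 4, and 20 collagen genes were then tested. With normexp background correction, the Col4a4 difference was -0.27 and not called (adjusted p = 0.582).

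The genes of type IV collagen lie in head-to-head pairs that are transcribed away from a shared promoter region. In the RefSeq promoter windows of GRCr8, the starts of Col4a1 and Col4a2 are 77 bases apart, those of Col4a3 and Col4a4 413 and those of Col4a5 and Col4a6 1415. The 76 bases between the Col4a1 and Col4a2 starts (chr16:84885521-84885596, + strand, 78.9% G and C) are printed because both genes were called higher by their brightest probes. Capitals mark the GC box (GGGCGG, here on the - strand), a motif bound by Sp-family factors.
Col4a1 and Col4a2: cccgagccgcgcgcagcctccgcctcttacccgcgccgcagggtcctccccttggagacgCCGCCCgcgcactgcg
Windows of 300 bases (250 before and 50 after the start) were held for 27 of the 36 collagen genes. Those without a window were Col1a1, Col2a1, Col3a1, Col6a2, Col6a4p1, Col9a3, Col12a1, Col14a1 and Col22a1. The 27 also include genes that were not called, so the shares below are not those of the called genes. GGGCGG occurred on either strand in 18 of 27 (66.7%) and in 34.9% of 27457 windows of all genes, CCAAT in 8 (29.6%) and 37.7%, and TATAAA in 2 (7.40%) and 14.3%. No motif contains another, the windows of Col4a1 and Col4a2 share 176 bases and those of Col4a3 and Col4a4 88, and a match is a description of the letters only.

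Other collagens held both the largest falls and another clear rise. Col16a1, a fibril-associated collagen of connective tissue, read 2.79, 2.67, 2.67 and 2.86 on NC and 3.65, 3.76, 3.83 and 3.79 on siRNA arrays. The groups were separate by more than their spread (1.01 ± 0.06, limma adjusted p = 1.18e-05, 2.01-fold), and its other probe gave 0.94 ± 0.06. Col12a1, which binds the surface of type I fibrils, was dim and rose by 0.55 ± 0.11 by its brighter probe (limma adjusted p = 0.00276), while its other probe gave 0.17 ± 0.13 and was not called. With normexp background correction the brighter Col12a1 probe was -0.33 and not called (limma adjusted p = 0.449). With normexp without the spots no brighter than their background it was 0.075 and not called (limma adjusted p = 0.126). Col8a1, a short-chain collagen of vessel walls and of Descemet's membrane, read 1.38, 1.37, 1.29 and 1.33 on NC and 0.33, 0.35, 0.32 and 0.33 on siRNA arrays. It was the 1 collagen detected on all 8 arrays that fell, with tight groups and a difference of -1.01 ± 0.04 (limma adjusted p = 1.67e-06, 2.01-fold lower).

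The remaining falls were of genes lost to background on the siRNA arrays. Col6a5, a chain of beaded-filament type VI collagen, read -2.63, -2.36, -2.07 and -2.60 on NC and -6.13, -6.53, -6.30 and -6.21 on siRNA arrays. Col6a5 was at least 4.14-fold lower (fitted difference -3.88 ± 0.14, limma adjusted p = 9.32e-07), the largest bound among the collagens. That bound holds for the processed signal only: the fitted Col6a5 difference was -1.22 with normexp background correction and -0.89 with normexp without the spots no brighter than their background, both called. Col9a3, a chain of type IX collagen on cartilage fibrils, read -3.64, -2.88, -3.15 and -3.51 on NC and -6.58, -6.99, -6.80 and -6.73 on siRNA arrays. No siRNA array came near the NC range, and Col9a3 was at least 2.24-fold lower (fitted difference -3.48 ± 0.17, limma adjusted p = 3.88e-06). Col22a1, found at tissue junctions of muscle and tendon, read -3.71, -3.62, -3.75 and -3.96 on NC and -6.46, -5.85, -6.61 and -5.98 on siRNA arrays. It was also below background on every siRNA array, at least 1.63-fold lower (fitted difference -2.46 ± 0.18, limma adjusted p = 2.32e-05). With the same corrections Col9a3 was -1.06 and -0.68, Col22a1 -0.80 and -0.40, and Col2a1 -0.84 and -0.47, where normexp itself left Col22a1 and Col2a1 not called (limma adjusted p = 0.123 and 0.095). Col9a1, the partner chain of Col9a3 whose glycine-repeat probe is printed above, read -1.88, -1.77, -1.84 and -1.62 on NC and -1.55, -1.65, -1.66 and -1.79 on siRNA arrays. Its groups overlapped (0.11 ± 0.08, limma adjusted p = 0.229), and its other probe gave 0.37 ± 0.16 (limma adjusted p = 0.0704). Col9a1 was called with median scaling (0.42), quantile normalization (0.24) and spike-in scaling (0.66). With the mean of both probes, its difference was 0.24 and called (limma adjusted p = 0.0437).

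**Figure D2:**
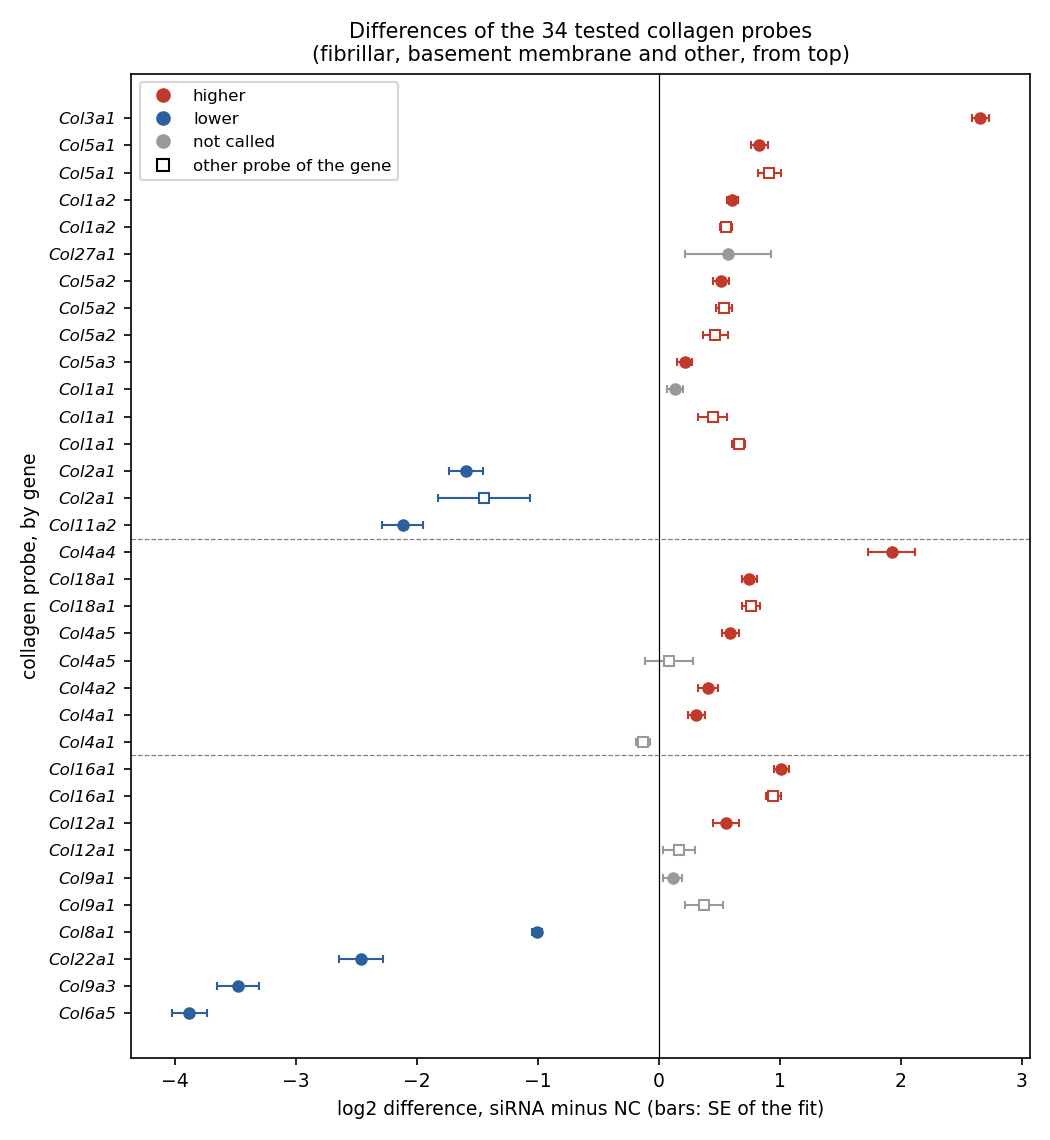
Log2 difference, siRNA minus NC (horizontal axis, bars show the SE of the fit), for the 34 tested collagen probes by gene (vertical axis); filled circles are the brightest probe of each gene, open squares its other probes, red higher, blue lower and grey not called. Probes of Col5a2, Col5a1, Col18a1 and Col16a1 lie together, while those of Col1a1, Col4a1, Col4a5 and Col12a1 fall on both sides of the threshold.

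Of 11 genes with several measured probes, 7 had the same call at all of them (Col18a1, Col1a2, Col2a1, Col5a1, Col5a2, Col16a1 and Col9a1) and 4 did not. The scaling between arrays shifted the collagen values together with those of other genes. Median scaling moved the median difference of all probes from -0.03 to 0.28 and spike-in scaling to 0.52, and the probes called higher and lower went from 7310 and 8006 to 13020 and 4211 and to 16381 and 2673. Quantile normalization called 8304 and 6652 and cyclic loess 7547 and 7409, each of 24853 probes. Of the 21 collagen genes, those called higher and lower numbered 14 and 6 with median and 13 and 6 with quantile scaling. They were 12 and 6 with cyclic loess and 15 and 6 with spike-in scaling. The added higher calls with median and spike-in scaling thus went with more higher calls over all probes. Each of the 21 genes had the same sign under all 5 scalings, from -3.88 to -3.34 for Col6a5 and from 2.56 to 3.20 for Col3a1. Changes are given relative to the 75th-percentile scaling throughout.

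**Figure D3:**
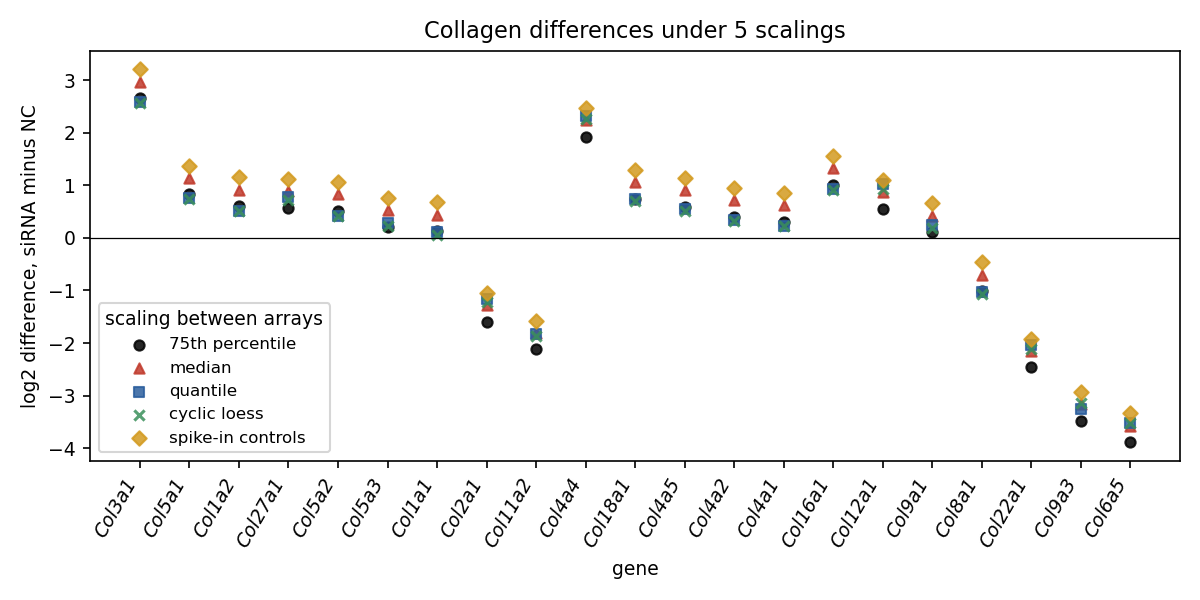
Log2 difference, siRNA minus NC (vertical axis), of the 21 measured collagen genes (horizontal axis) under 5 scalings between arrays, 1 marker per scaling. Spike-in scaling gives the highest value for each gene and Col8a1 ranges from -1.07 to -0.46, yet no gene crosses 0.

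A scale factor between arrays cancels in the ratio of 2 genes on the same array, so listed pairs were also compared as ratios: chains of a trimer, neighbouring genes, and Col3a1 with Col1a1, whose collagens occur in the same fibrils. Of 13 pairs listed, 5 had both genes measured, and 4 of them differed between groups by an exact permutation test (two-sided p = 0.0286, the smallest that 70 splits allow; 0.0357 adjusted over the 5 pairs). Col3a1 relative to Col1a1 was -4.75 ± 0.24 on NC and -2.22 ± 0.07 on siRNA arrays (SD, n = 4), an increase of 2.53 in the log2 ratio, and of 2.21 and 2.0 with the other Col1a1 probes. Col3a1 relative to its genomic neighbour Col5a2 increased by 2.14, and Col5a1 relative to Col5a2, its partner in type V trimers, by 0.32. Col1a1 relative to Col1a2 fell by 0.48, but with the other Col1a1 probes the ratio changed by -0.16 and 0.05 and was not called (exact permutation, adjusted p = 0.357 and 0.429). The Col4a1 to Col4a2 ratio, of the pair that shares a promoter region, was 3.50 ± 0.19 on NC and 3.40 ± 0.06 on siRNA arrays and was not called (exact permutation p = 0.371). With the other Col4a1 probe that ratio fell by 0.54 and was called (exact permutation, adjusted p = 0.0286). Such ratios show unequal change and not which gene moved.

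Genes that fold, cut, bind or accompany collagen were read from 5 lists, of which 49 genes were measured. Of these, 29 were higher and 6 lower, against 35.3% and 29.3% of all measured genes. Those shares, here and for each list below, belong to the main fit and not to other scalings or background corrections. With arrays scaled to their medians, 35 and 2 of the 49 were called, where 13020 and 4211 of all 24853 probes were. By spike-in scaling 41 and 2 were called, where 16381 and 2673 of all probes were. The added higher calls with these scalings thus went with more higher calls over all probes. Normexp background correction called 1935 and 1694 of all probes. In the endoplasmic reticulum, prolyl and lysyl hydroxylases and chaperones prepare the helix. Of 18 measured genes of this list 11 were higher and 1 lower, against the same 35.3% and 29.3%, with a median of 0.47 against 0.04 over all genes (15 and 0 with median, 17 and 0 with spike-in scaling). Normexp background correction left 7 higher and 0 lower. P3h4, a partner of lysyl hydroxylase, rose by 1.02 ± 0.09 (limma adjusted p = 5.05e-05), and the prolyl 4-hydroxylase subunit P4ha2 by 0.69 ± 0.06 (limma adjusted p = 5.48e-05). The prolyl 3-hydroxylases P3h1 and P3h3 rose by 0.51 ± 0.05 and 0.59 ± 0.06. Fkbp14, a prolyl isomerase of the same compartment, was the 1 member that fell (-0.41 ± 0.07, limma adjusted p = 0.00119), with 0.14 under spike-in scaling.

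After secretion, propeptides are cut and lysines cross-linked. Of 8 measured genes of this step 6 were higher and 0 lower, beside 35.3% and 29.3% of all measured genes, with a median of 0.61 (7 and 0 with median, 8 and 0 with spike-in scaling, 4 and 0 with normexp background correction). Adamts2, the N-propeptidase of types I and III, read 0.79, 0.75, 0.50 and 0.82 on NC and 2.15, 2.33, 2.10 and 2.17 on siRNA arrays. Its groups were far apart (1.47 ± 0.09, limma adjusted p = 8.09e-06, 2.78-fold), the largest rise of the 49 genes. Pcolce, which enhances C-propeptide removal, rose by 0.76 ± 0.06 (limma adjusted p = 2.71e-05). The lysyl oxidase relatives Loxl3 and Loxl2 rose by 0.97 ± 0.10 and 0.46 ± 0.08, while Lox itself was 0.12 ± 0.07 and not called (limma adjusted p = 0.135).

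Of 5 measured collagen receptor genes, 2 were higher and 1 lower, which is near the 35.3% and 29.3% of all measured genes. Their median was -0.01 (0.14 with quantile and 0.10 with cyclic loess normalization, and 3 and 0 were called with median and with spike-in scaling). With normexp background correction 0 were higher and 0 lower, with a median of -0.36. Itgb1 and Itga1, which pair as a collagen-binding integrin, rose by 0.39 ± 0.05 and 0.30 ± 0.05, and the collagen receptor kinase Ddr2 fell by 0.59 on the log2 scale (SE 0.17, limma adjusted p = 0.0154). The Ddr2 difference was -0.28 with median and -0.04 with spike-in scaling. Of the non-collagen partners in basement membranes, 7 of 10 were higher and 3 lower, where 35.3% and 29.3% of all measured genes were, with a median of 0.45 (7 and 1 with median, 8 and 1 with spike-in scaling). Under normexp background correction 4 were higher and 1 lower. Nid2 and Nid1, which link laminin to type IV collagen, rose by 1.05 ± 0.08 and 0.56 ± 0.07, the laminin chain Lama5 by 0.67 ± 0.06 and Agrn, a heparan sulfate proteoglycan, by 0.61 ± 0.07. The laminin gamma chain Lamc1 was lower (-0.36 ± 0.05, but 0.18 under spike-in scaling), and Lamc3, above background on no siRNA array, was at least 1.25-fold lower (fitted difference -0.57, and 0.0017 with quantile normalization). Among 8 measured fibril partners 3 were higher and 1 lower, the higher share being near the 35.3% of all measured genes (29.3% were lower), with a median of -0.07. Quantile normalization gave 3 and 2, cyclic loess 3 and 3, normexp background correction 1 and 1, and spike-in scaling 5 and 1 with a median of 0.47. The microfibril gene Fbn1 rose by 1.32 ± 0.09 (limma adjusted p = 1.57e-05), Eln by 0.63 ± 0.10 and Fbn2 by 1.09 ± 0.34 (limma adjusted p = 0.0245). For Fbn2 the groups overlapped, with NC array 3 at -2.10 and siRNA arrays from -2.31 to -1.75. Thbs1 fell by 1.88 (SE 0.31, limma adjusted p = 0.00128), and fibronectin, Fn1, was -0.15 ± 0.09 and not called (0.39 under spike-in scaling).

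**Figure D4:**
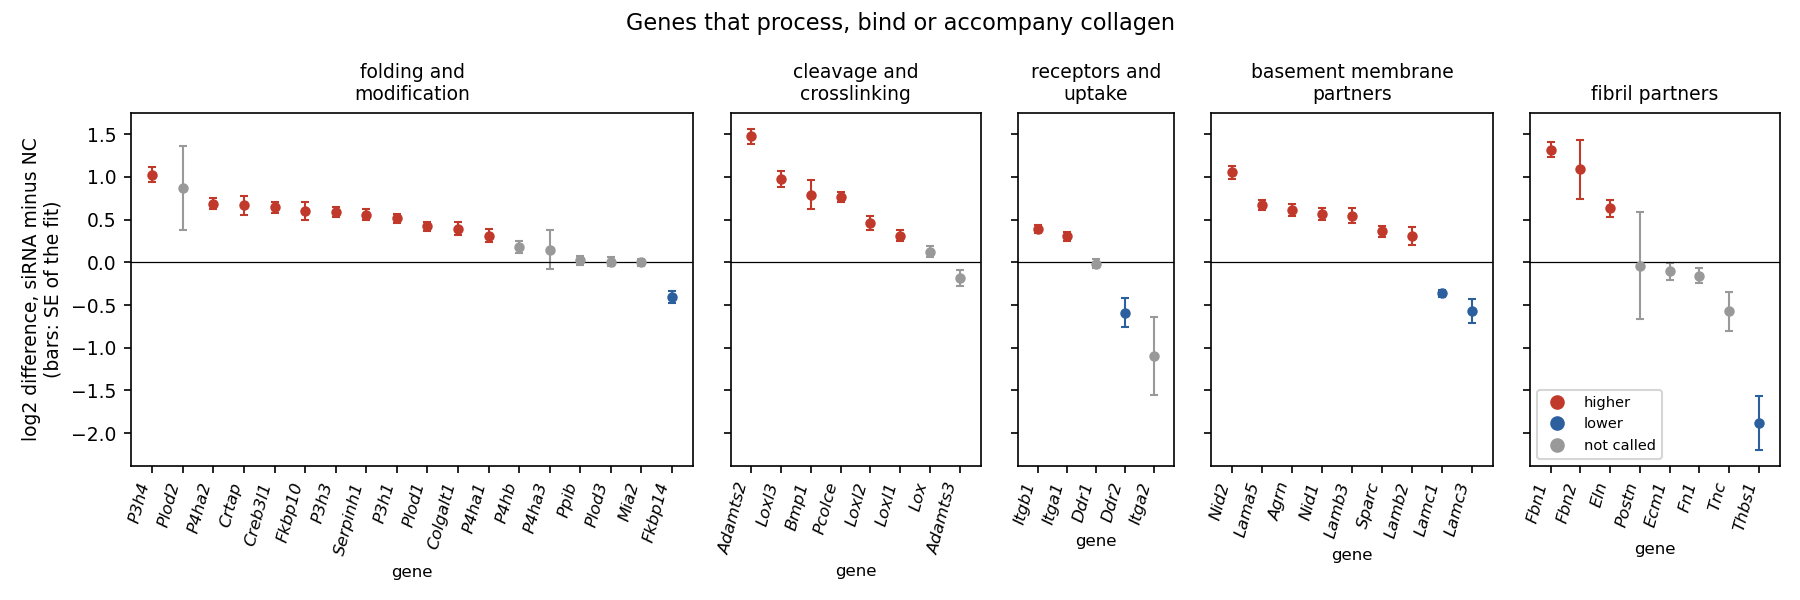
Log2 difference, siRNA minus NC (vertical axis, bars show the SE of the fit), of 48 of the 49 measured genes of 5 lists that process, bind or accompany collagen (horizontal axis), red higher, blue lower and grey not called. The lists for folding and for cleavage and cross-linking lie mostly above 0, with Adamts2 at 1.47, and the other lists hold genes on both sides, down to Thbs1 at -1.88.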

How the data were processed

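Per the labels' protocols, Cy3-labelled RNA of 8 samples was hybridised, each to its own 1-colour array. Scanner files as deposited hold spot intensity from Agilent Feature Extraction (12.0.3.1 per the file headers, 12.0 per the submitters' processing notes), background-subtracted within the array and not scaled between arrays. The authors' deposited series table of log2 values, for which no source used here names a normalization, holds no collagen probe and was not used. Control spots and outlier-marked spots were left out, log2 intensities were set relative to the 75th percentile and spots of a probe averaged. Probes well above background on at least 3 of 4 arrays of a group were kept (24853 of 41012) and tested with limma's lmFit and eBayes (version 3.58.1, R 4.3.3; two-sided, Benjamini-Hochberg over kept probes, adjusted p under 0.05, also 2-fold). The fit was tested on simulated data. A gene is its brightest kept probe. Where a group was below background throughout, the fold is a bound. Promoter windows are RefSeq's (GRCr8). The members and lists were chosen with earlier results of these data known. The text names all collagens of the rule, giving array values for the 5 called genes with the smallest adjusted p in each class, calls of 2-fold or more, bounds and the 2 brightest uncalled genes, and up to 4 called genes per direction and list, of which 1 is not reported here. Alternatives were other scalings, background corrections, filters, probe choices, outlier spots kept, a replicate block and each array left out.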

Additional observations from a re-analysis of the deposited data

Results flagged for a closer look

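Of 42 groups of 4 arrays (21 collagen genes, both groups), 2 held an array that stood apart from the others, where chance marks about 5% of groups. For Col4a4, the gap of NC array 1 (-6.29) to the other NC arrays (-6.10 to -6.07) was 0.848 of the group's range, and none of these 4 values was well above background. For Col11a2, siRNA array 4 (-3.75) lay above the other siRNA arrays (-4.30 to -4.22), with a gap of 0.850 of the range, and it was the only siRNA array on which that probe was well above background.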

How the results depend on the processing

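The number of arrays, and signal near background for Col2a1, Col22a1, Col6a5, Col9a3 and Col4a4, limit these results. Besides the scaling results given with the collagens, normexp background correction changed most: 1935 probes were higher and 1694 lower over all, 12 and 4 collagen probes, 7 collagen genes higher and 4 lower, and 16 and 2 accessory genes. Calls lost with it that kept their sign included Col2a1 (-0.84, adjusted p = 0.095), Col22a1 (-0.80, 0.123), Col4a1 (0.60, 0.0748) and Col4a2 (0.62, 0.0627). Differences that changed sign with it were Col4a4 (-0.27), Col27a1 (-0.13), Col5a3 (-0.057), Col12a1 (-0.33) and Col9a1 (-0.16), none of them called with normexp. Of these, Col4a4, Col5a3 and Col12a1 were called higher in the main fit. The cause of these sign changes was not tested. With spots no brighter than their background left out of normexp, an alternative chosen after seeing the data, 19 and 7 collagen probes and 11 and 6 genes were called. All probes called higher and lower were 13020 and 4211 with median and 16381 and 2673 with spike-in scaling, and 2 accessory genes were lower with each. With only probes well above background on all 8 arrays, 24 collagen probes and 14 genes were tested. Of these, 18 probes and 10 genes were higher, and 1 probe and 1 gene (Col8a1) were lower. That filter leaves out every gene not detected on all siRNA arrays. Col2a1, Col11a2, Col22a1, Col6a5 and Col9a3 could therefore not be counted as lower. Col4a4 and Col12a1, higher in the main fit, were left out as well. Col1a1 relative to Col1a2 was -0.16 and 0.052 with the other Col1a1 probes, and Col4a1 relative to Col4a2 -0.54 with the other Col4a1 probe, both chosen after seeing the data.

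With each array left out in turn, 19 to 21 collagen probes were higher and 6 to 8 lower, 11 to 13 genes higher and 6 lower, 6541 to 7286 of all probes higher and 6468 to 7794 lower, and 28 to 29 accessory genes higher and 5 to 8 lower. The log2 ratios ranged from -0.53 to -0.44 (Col1a1 to Col1a2), 2.45 to 2.63 (Col3a1 to Col1a1), 2.11 to 2.17 (Col3a1 to Col5a2), 0.26 to 0.35 (Col5a1 to Col5a2) and -0.18 to -0.04 (Col4a1 to Col4a2). The labels link same-numbered arrays by nothing but the number. Correlations of their deviations were 0.013, 0.030, -0.032 and 0.209, with the best match at the same number for replicate 4 alone. Such values cannot exclude a shared batch. With the replicate block, 20 and 7 collagen probes, 12 and 6 genes and 7097 and 7895 of all probes were called, and a paired test of a ratio cannot go below p = 0.125 (exact sign-flip, 4 pairs). The series table holds no collagen probe, so that alternative was not run.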
